A study of Oryctolagus cuniculus with 17 samples.

Results

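The genes of the BCL2 family that keep cells alive or commit them to death were followed in the lungs of preterm rabbit pups breathing hyperoxia or normoxia. The set was a list of 10 gene symbols (BCL2, BCL2L1, MCL1, BAX, BAK1, BBC3, PMAIP1, BCL2L11, BID and BMF), each matched to the human symbol given in the raw count table. All 10 were found among 13827 table entries, each with 1 entry and alone at its locus. The list held 3 pro-survival genes and 7 pro-death genes, of which 2 were effectors and 5 were BH3-only genes. PMAIP1 did not pass the filter on low counts, so 9 members were tested among 13142 genes. The pups were New Zealand White rabbits taken by caesarean section on gestation day 28, before term, and all were fed a milk replacer in incubators. Hyperoxia groups breathed 95% oxygen until postnatal day 3 (HT3, 3 samples), day 5 (HT5, 2 samples) or day 7 (HT7, 3 samples). Normoxia groups breathed 21% oxygen until the same days (NT3, NT5 and NT7, 3 samples each). The 17 samples were homogenates of the right lung, and 1 more HT5 sample is not analysed here. Both arms were born preterm, so no group shows the lung of a pup born at term, and the litter of each pup is not given in the sources used here.

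Proteins of this family meet at the outer mitochondrial membrane. The pro-survival proteins bind and hold the effectors BAX and BAK, which otherwise open the membrane, release cytochrome c and set off the caspases. BH3-only proteins sense damage and either occupy the pro-survival proteins or activate the effectors directly. In the lung, oxygen toxicity is known to kill epithelial and endothelial cells, and the family has long been studied as a control point of that death.

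Each sample held between 13123731 and 18111086 counts with every locus counted once. The 9 tested members had at least 142 counts in every sample, whereas PMAIP1 had between 0 and 16. Levels are given as CPM, counts scaled to a common library total with edgeR's TMM factors, and they compare samples for 1 gene but not different genes, since transcript lengths were not used. Effects are given as log2FC, the log2 of hyperoxia over normoxia in the fitted model. A gene was called changed when the adjusted p-value of edgeR's quasi-likelihood test was under 0.01. The RNA came from whole lung, in which fewer cells of a type and less RNA per cell cannot be told apart. The tissue label was checked against alveolar type 2 cell markers, whose summed level over 7 genes lay between 12590 and 33180 CPM in every sample.

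Some members of opposite roles moved in the same direction, and some members of the same role moved apart. By day 7, the effector BAX, the BH3-only gene BBC3 and the pro-survival genes BCL2L1 and MCL1 had risen in hyperoxia, while the pro-survival gene BCL2 and the BH3-only gene BMF had fallen. On day 3, 0 of 9 members were called, where 0.205% of all genes tested were. At an unadjusted p under 0.05, 2 of 9 members (22.2%, BAX and BCL2L11) passed on day 3, against 15.3% of all genes, and DESeq2 called 0. On day 5, 2 of 9 members (22.2%) were called, both higher in hyperoxia, against 16.2% of all genes (8.56% higher and 7.62% lower). At an adjusted p under 0.05 on day 5, 5 of 9 members (55.6%) passed, against 31.3% of all genes, with BCL2L1, MCL1 and BMF added. On day 7, 6 of 9 members (66.7%) were called, against 33.6% of all genes. Of these, 4 were higher (44.4% of members, 16.7% of all genes) and 2 were lower (22.2% of members, 16.9% of all genes). None of the 9 reached a log2FC beyond 2 on day 7, a limit that 4.59% of all genes passed together with the adjusted p-value. The median size of the day 7 effect, whatever its sign, was 0.94 over the 9 members and 0.48 over all genes on the log2 scale.

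**Figure D1:**
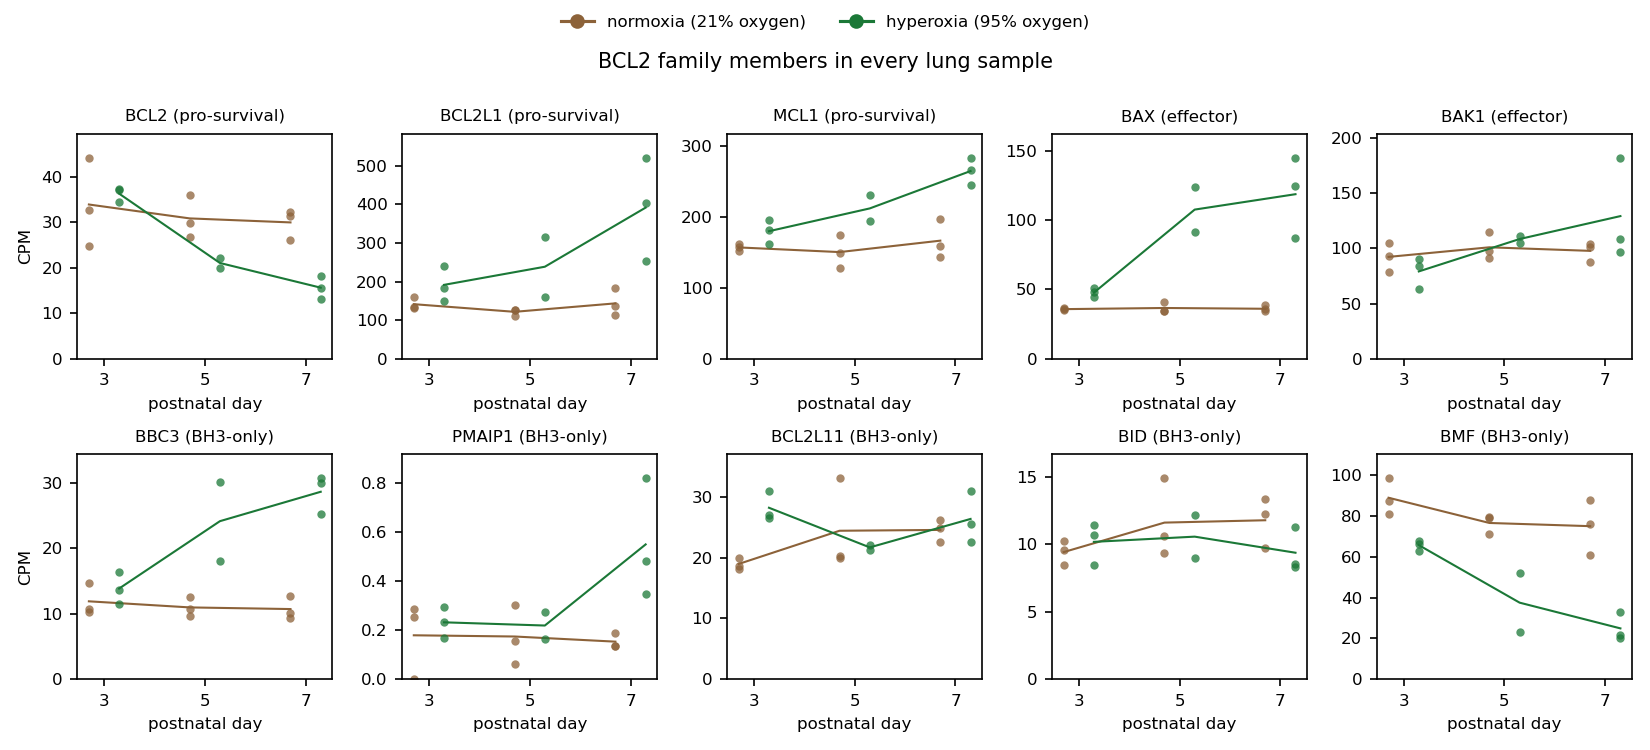
CPM of each of the 10 members (vertical axis, 1 panel per gene, each with its own scale from 0) against postnatal day for normoxia (brown) and hyperoxia (green), where points are single lung samples and lines join group means. Normoxia lines stay level for BAX, near 36 CPM, while hyperoxia samples climb for BAX, BBC3, BCL2L1 and MCL1 and drop for BCL2 and BMF.

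Among the pro-survival genes, BCL2 (ENSOCUG00000025312, chromosome 9, 103406141 to 103572189, reverse strand, OryCun2.0) was the one that fell. It is the founding member of the family and a guardian of the mitochondrial membrane. On day 3, BCL2 stood at 37.3, 37.2 and 34.5 CPM in HT3 and at 44.1, 32.8 and 24.9 CPM in NT3, so that the HT3 samples lay inside the NT3 range. On day 5, BCL2 was 20.1 and 22.1 CPM in HT5 against 26.8, 29.8 and 36.1 CPM in NT5, and the groups no longer overlapped. The day 5 log2FC of -0.55 (standard error 0.21) was not called (edgeR, adjusted p = 0.0599). On day 7, BCL2 was 13.2, 18.3 and 15.5 CPM in HT7 and 31.4, 32.4 and 26.2 CPM in NT7, with all HT7 samples below all NT7 samples. BCL2 was 1.92-fold lower in HT7 (log2FC -0.94, standard error 0.19, edgeR adjusted p = 0.000955).

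BCL2L1 (ENSOCUG00000003201, chromosome 4, 7512085 to 7567980, forward strand) encodes BCL-XL, which holds BAX and BAK in check as BCL2 does, and it moved the other way. On day 7, BCL2L1 was 520.0, 253 and 403 CPM in HT7 and 136, 183 and 112 CPM in NT7, so the groups were apart but the HT7 samples spread widely. It was 2.73-fold higher in HT7 (log2FC 1.45, standard error 0.28, edgeR adjusted p = 0.000701). On day 5, BCL2L1 was 160.5 and 317 CPM in HT5 and 127, 111 and 127 CPM in NT5. Both HT5 samples exceeded all NT5 samples, but the log2FC of 0.97 (standard error 0.30) was not called (edgeR, adjusted p = 0.0249). That value was 0.38 without HT5 replicate 2 and 1.38 without HT5 replicate 1. DESeq2's Wald test on all samples called BCL2L1 on day 5 (adjusted p = 0.0078). On day 3, BCL2L1 was 183, 242 and 151 CPM in HT3 and 131, 133 and 161 CPM in NT3, which overlapped.

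MCL1 (ENSOCUG00000012152, chromosome 13, 41503730 to 41506015, forward strand), a short-lived pro-survival protein that is made and degraded quickly, had the smallest of the 6 called changes. On day 7, MCL1 was 244, 267 and 283 CPM in HT7 and 198, 158 and 144 CPM in NT7, and every HT7 sample was above every NT7 sample. The rise was 1.59-fold (log2FC 0.67, standard error 0.14, edgeR adjusted p = 0.000989). On day 5, MCL1 was 194 and 230.4 CPM in HT5 and 175, 128 and 149 CPM in NT5, again without overlap. The log2FC of 0.49 was not called by edgeR's quasi-likelihood test (adjusted p = 0.0213), while DESeq2's Wald test called MCL1 (adjusted p = 0.00913). On day 3, MCL1 was 162, 196 and 182 CPM in HT3 and 158, 151 and 162 CPM in NT3, where the lowest HT3 sample was level with the highest NT3 sample.

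BAX (ENSOCUG00000006423, scaffold GL019028, 90719 to 94100, reverse strand), an effector that forms pores in the mitochondrial membrane and a target of p53, had the lowest adjusted p-value of the members on days 5 and 7. Its level in normoxia was the steadiest of the set, between 34.1 and 41.1 CPM over all 9 samples. On day 3, BAX was 50.7, 44.3 and 48.1 CPM in HT3 and 35.6, 36.5 and 35.3 CPM in NT3. The HT3 samples were all above the NT3 samples, but the log2FC of 0.41 (standard error 0.16) was not called (edgeR, adjusted p = 0.225). On day 5, BAX was 91.5 and 124 CPM in HT5 and 41.1, 34.7 and 34.2 CPM in NT5, which is 2.94-fold higher (log2FC 1.55, standard error 0.17, edgeR adjusted p = 6.89e-05). On day 7, BAX was 145, 86.9 and 124 CPM in HT7 and 38.5, 35.6 and 34.1 CPM in NT7. The lowest hyperoxia sample of days 5 and 7 thus stood above the highest normoxia sample of any day. The day 7 rise was 3.29-fold (log2FC 1.72, standard error 0.16, edgeR adjusted p = 3.27e-06).

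BAK1 (ENSOCUG00000002556, chromosome 12, 23915173 to 23922016, reverse strand) encodes the other effector, and its change was not called on any day. On day 7, BAK1 was 182, 97.2 and 109 CPM in HT7 and 104, 88.0 and 101 CPM in NT7, with 1 high HT7 sample and 2 near the normoxia range. The log2FC was 0.40 with a 95% interval from -0.03 to 0.83 (edgeR, adjusted p = 0.115), and it was 0.08 without HT7 replicate 1. On days 3 and 5 the log2FC of BAK1 was -0.22 and 0.10. The interval on day 7 therefore still includes a rise of BAK1 as well as none, and the difference between BAX and BAK1 was not tested.

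The BH3-only genes also split. BBC3 (ENSOCUG00000037839, scaffold GL018835, 532214 to 535975, reverse strand) encodes PUMA, a p53-induced protein that binds all pro-survival members, and it rose. On day 7, BBC3 was 30.0, 25.2 and 30.7 CPM in HT7 and 12.6, 10.1 and 9.35 CPM in NT7, with a wide gap between the groups. It was 2.68-fold higher in HT7 (log2FC 1.42, standard error 0.22, edgeR adjusted p = 0.000113). On day 5, BBC3 was 18.1 and 30.2 CPM in HT5 and 10.7, 12.5 and 9.66 CPM in NT5, which did not overlap (log2FC 1.14, standard error 0.23, edgeR adjusted p = 0.00251). On day 3, BBC3 was 13.6, 11.5 and 16.4 CPM in HT3 and 10.3, 14.7 and 10.6 CPM in NT3, and the groups overlapped. The day 5 call of BBC3 was lost without HT5 replicate 2 (log2FC 0.71, adjusted p = 0.0979) and without NT5 replicate 3 (log2FC 1.06, adjusted p = 0.0129). In a fit of the day 5 samples alone, neither BAX (adjusted p = 0.0142) nor BBC3 (adjusted p = 0.0344) was called. With the replicate number as a block in edgeR, BBC3 was not called (adjusted p = 0.0217) and BAX was (adjusted p = 0.00282).

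BMF (ENSOCUG00000006524, chromosome 17, 31970237 to 31984345, forward strand), a BH3-only protein held on the cytoskeleton by a dynein light chain and known for its part in death after loss of attachment, had the largest fall of the set. On day 7, BMF was 21.5, 32.9 and 20.3 CPM in HT7 and 60.8, 88.1 and 76.3 CPM in NT7, so that the highest HT7 sample lay well under the lowest NT7 sample. BMF was 3.02-fold lower in HT7 (log2FC -1.59, standard error 0.24, edgeR adjusted p = 0.000118). On day 5, BMF was 51.9 and 23.1 CPM in HT5 and 79.4, 79.0 and 71.4 CPM in NT5. Both HT5 samples were below NT5 but far from each other, and the log2FC of -1.03 (standard error 0.27) was just short of a call (edgeR, adjusted p = 0.0110). It was -0.58 without HT5 replicate 2 and -1.73 without HT5 replicate 1. In edgeR with DESeq2's size factors the adjusted p was 0.00971, and DESeq2's own Wald test called BMF on day 5 (adjusted p = 0.000986). On day 3, BMF was 66.2, 63.1 and 67.9 CPM in HT3 and 87.5, 98.5 and 81.0 CPM in NT3, already without overlap, with a log2FC of -0.44 that was not called (edgeR, adjusted p = 0.399).

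BCL2L11 (ENSOCUG00000007385, chromosome 2, 96189346 to 96233501, forward strand) encodes BIM, a strong activator of BAX and BAK. It had the largest day 3 log2FC of the set, with smaller values on later days. On day 3, BCL2L11 was 26.6, 31.1 and 27.1 CPM in HT3 and 18.2, 18.7 and 20.0 CPM in NT3, and the groups were apart. The log2FC was 0.57 (standard error 0.18) and was not called (edgeR, adjusted p = 0.139). On day 7, BCL2L11 was 22.6, 25.5 and 31.0 CPM in HT7 and 22.6, 25.0 and 26.2 CPM in NT7, which overlapped (log2FC 0.10, 95% interval from -0.28 to 0.48). The day 5 log2FC was -0.17, and it was 0.11 without NT5 replicate 1, the highest of the NT5 samples at 33.1 CPM. Between days 3 and 7 its mean moved from 19.0 to 24.6 CPM in normoxia and from 28.2 to 26.4 CPM in hyperoxia, and neither step was called.

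BID (ENSOCUG00000016266, scaffold GL018809, 157684 to 193808, reverse strand) links death receptors to mitochondria once caspase-8 has cut it. Its levels lay between 8.30 and 14.9 CPM in all 17 samples, the groups overlapped on each day, and the day 7 log2FC was -0.33 (95% interval from -0.79 to 0.12). PMAIP1 (ENSOCUG00000031526, chromosome 9, 100192379 to 100195634, forward strand) encodes NOXA, a p53 target that pairs mainly with MCL1. It had 6, 8 and 16 counts in HT7 and 2, 2 and 3 counts in NT7. It had between 3 and 5 counts in HT3 and HT5 and between 0 and 5 in NT3 and NT5. At these counts no fold change is given for PMAIP1, and the HT7 counts, though all above those of the other groups, stayed untested under the filter.

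**Figure D2:**
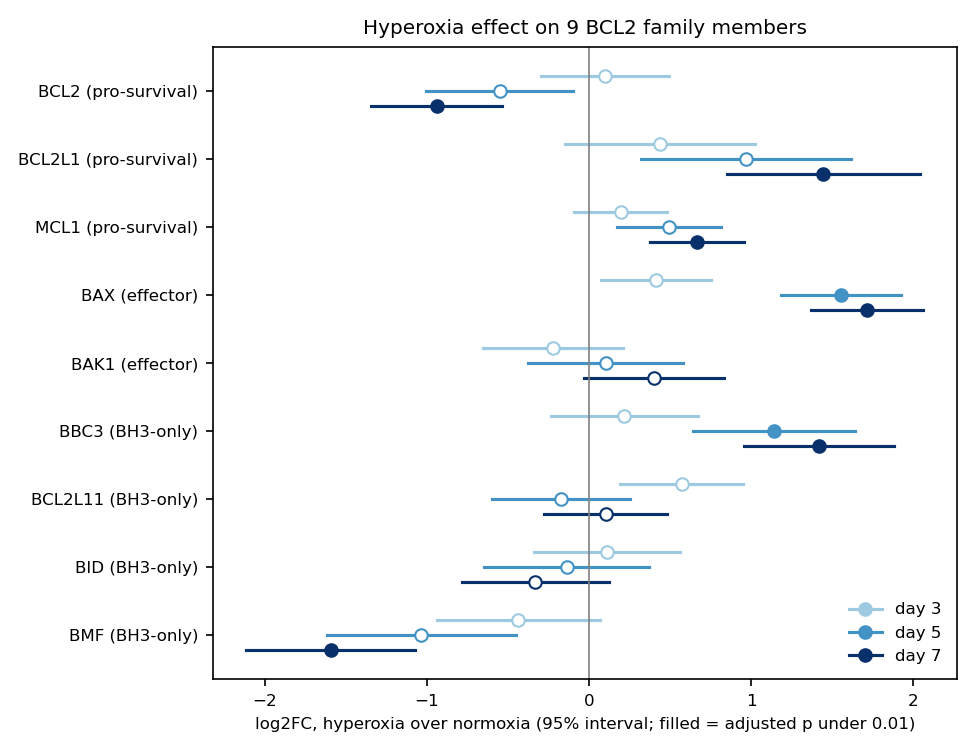
Log2FC of hyperoxia over normoxia (horizontal axis) with its 95% interval for the 9 tested members (vertical axis, with their roles) on days 3, 5 and 7 (light to dark blue), where filled points have an adjusted p under 0.01. On day 7, 4 filled points lie to the right of 0 (BAX, BCL2L1, BBC3 and MCL1) and 2 to the left (BCL2 and BMF), while BAK1, BCL2L11 and BID have intervals that include 0.

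Whether the samples of a day overlapped gave a similar list with a high background. On day 3, the groups did not overlap for 4 of 9 members (44.4%: BAX, BCL2L11, BMF and MCL1), against 26.7% of all genes. On day 5, 6 of 9 members (66.7%) had groups apart, against 55.7% of all genes. On day 7, 6 of 9 members (66.7%) had groups apart, against 54.5% of all genes. The 6 members were those called on day 7, on both later days. These shares on days 5 and 7 were close to the background.

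The next question was whether the effect of hyperoxia on a member grew between days 3 and 7. The difference between the day 7 and day 3 effects was called for 1 of 9 members, where 7.27% of all genes were called. This was BAX, whose effect was larger by 1.30 on day 7 on the log2 scale (standard error 0.22, edgeR adjusted p = 0.00212). At an adjusted p under 0.05, 4 of 9 members (44.4%) passed, against 20.5% of all genes. Besides BAX they were BBC3 (difference 1.20, adjusted p = 0.0135), BCL2 (-1.04, adjusted p = 0.0145) and BMF (-1.16, adjusted p = 0.0263). With DESeq2, or without HT7 replicate 2, the same 4 genes were called at 0.01. For BCL2L1 (1.01, adjusted p = 0.0785) and MCL1 (0.47, adjusted p = 0.0927) growth of the effect was not shown. With day as a number, the BAX effect rose by 0.33 per day (standard error 0.07, edgeR adjusted p = 0.00685), the single call among 9 members against 6.54% of all genes. That call was not stable. BAX lost it without any 1 of the HT3, NT3 or NT7 samples and without HT7 replicates 1 or 3. It was also lost in a fit with the replicate number as a block.

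Each arm was also followed by itself from day 3 to day 7. These contrasts share their samples with the day comparisons above and are not independent of them. Within hyperoxia, 6 of 9 members were called between HT3 and HT7, against 29.4% of all genes. BAX (log2FC of HT7 over HT3 1.31), BBC3 (1.05), BCL2L1 (1.03) and MCL1 (0.56) rose, while BMF (-1.40) and BCL2 (-1.22) fell. BAK1 was just short of a call here (log2FC 0.71, edgeR adjusted p = 0.0110), and DESeq2 called it. Without HT3 replicate 1, HT3 replicate 3 or HT7 replicate 3, the called members were 4, with BCL2L1 and MCL1 lost each time. Within normoxia, 0 of 9 members were called between NT3 and NT7 by edgeR's quasi-likelihood test, and 0% of all genes were. DESeq2 called 0 members there, and 0 members had an unadjusted p under 0.05 in edgeR, against 6.27% of all genes. The normoxia mean of BAX, for example, was 35.8 CPM on day 3, 36.6 CPM on day 5 and 36.1 CPM on day 7.

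Ratios between members within a sample do not depend on library size or scaling, and each was set relative to its mean over the 9 normoxia samples. They are descriptions with no test, because the genes were already known to move. BAX over BCL2, the pair most often used for the balance of death and survival, was 1.13-fold the normoxia mean in HT3, 4.36-fold in HT5 and 6.46-fold in HT7. On the log2 scale the 9 normoxia samples ranged from -0.52 to 0.40 and the 5 samples of HT5 and HT7 from 1.97 to 3.25, which do not overlap. BAX over BCL2L1 gave another picture. This ratio was 1.75-fold the normoxia mean in HT5 but 1.15-fold in HT7, and the 3 HT7 samples (0.05, 0.20 and 0.35 on the log2 scale) lay in or just above the normoxia range of -0.47 to 0.27. BCL2L1 over BCL2, both pro-survival, was 5.62-fold the normoxia mean in HT7. BBC3 over BMF, both BH3-only and a pair chosen after their values were seen, was 8.44-fold.

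A mean over roles hid these shifts. The mean log2 CPM of the 6 tested pro-death members minus that of the 3 pro-survival members differed between hyperoxia and normoxia by -0.14 on day 3, -0.06 on day 5 and -0.12 on day 7. The 3 HT7 samples lay between -0.22 and -0.06 relative to the normoxia mean, inside the range of the 9 normoxia samples from -0.28 to 0.28. The day 7 value was -0.78 with BCL2 left out and 0.40 with BCL2L1 left out, and it was 0.26 with BMF left out, so its sign depended on which members were counted.

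**Figure D3:**
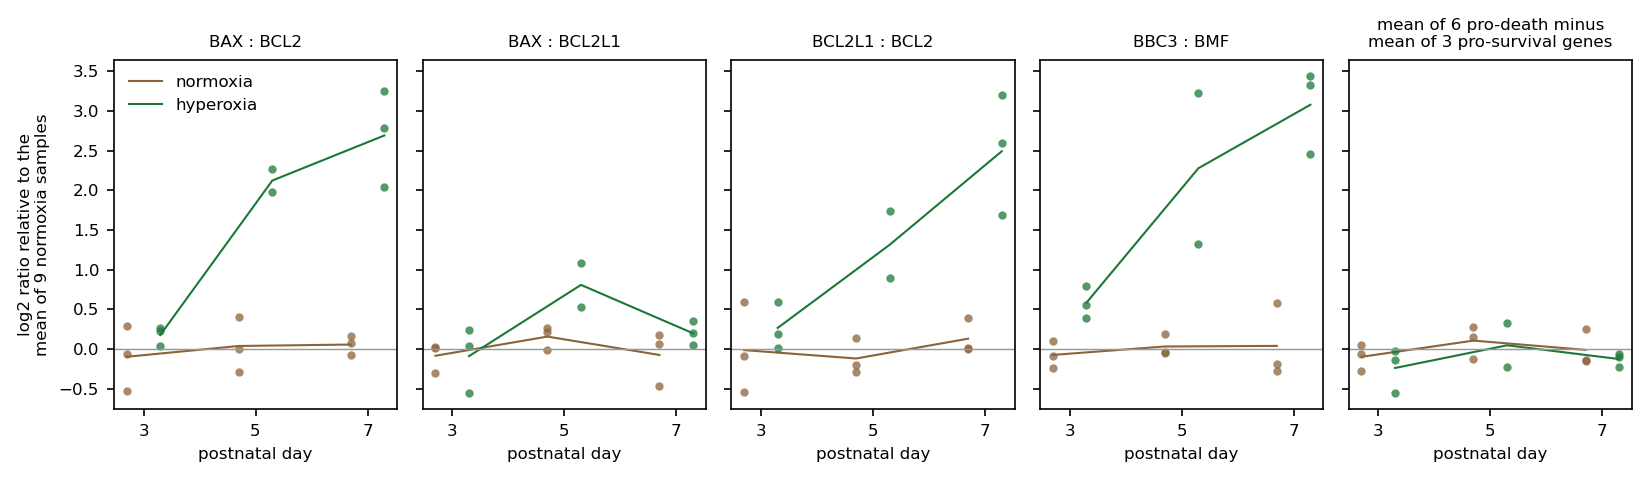
Log2 ratios within each sample relative to the mean of the 9 normoxia samples (vertical axis) against postnatal day, for BAX over BCL2, BAX over BCL2L1, BCL2L1 over BCL2, BBC3 over BMF and the mean of 6 pro-death minus 3 pro-survival members, with points for samples and lines joining group means (normoxia brown, hyperoxia green). BAX over BCL2 reaches 6.46-fold (2.69 on the log2 scale) in HT7, whereas BAX over BCL2L1 is above the normoxia samples in both HT5 samples but near them in HT7, and the difference of means stays close to 0.

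Hyperoxia samples differed in how far the members had moved. On day 7, HT7 replicate 2 was the sample nearest to normoxia for 5 of the 6 called members, and for MCL1 it was HT7 replicate 1. On day 5, HT5 replicate 1 was nearest for 5 of these 6 genes, and for BCL2 it was HT5 replicate 2. The highest BCL2L1, BAX and BAK1 levels and the lowest BCL2 level of the HT7 group were all in replicate 1. These samples also stood apart in cell type markers. Alveolar type 2 cell markers summed to 29590 CPM in HT7 replicate 2 and to 13540 and 16330 CPM in replicates 1 and 3, and to 33180 and 12660 CPM in HT5 replicates 1 and 2. Neutrophil markers summed to 3458 CPM in HT7 replicate 1 and to 1048 and 1539 CPM in replicates 2 and 3. The part of these cells in the spread of the members was not tested. The day 7 calls did not rest on 1 sample: with each HT7 or NT7 sample left out in turn, the same 6 members were called, with BAX between 1.55 and 1.91 and BCL2 between -1.05 and -0.83 in log2FC.

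Around the members, 7 lists of other cell death genes and regulators of the family were read, with 75 of their 96 genes found and tested. On day 3, 1 of 75 was called (1.33%, against 0.205% of all genes). On day 5, 17 were called (22.7%, against 16.2% of all genes), of which 14 were higher (18.7%, against 8.56% of all genes) and 3 lower (4%, against 7.62%). On day 7, 30 were called (40%, against 33.6% of all genes), of which 20 were higher (26.7%, against 16.7%) and 10 lower (13.3%, against 16.9%) in hyperoxia. The share called higher was thus above that of all genes on days 5 and 7 and the share called lower was below it, with no test of the lists as such. The lists were chosen with earlier results of these data known, so these shares are not independent evidence. The day 7 shares of all genes, 16.7% higher and 16.9% lower, are the background for each count of a list that follows.

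Of 8 other BCL2 family genes, 2 rose and 1 fell on day 7. BCL2L13, a mitochondrial protein that also acts in mitophagy, rose (log2FC 0.84) from a mean of 37.7 CPM in NT7 to 67.4 CPM in HT7, and BCL2L12 rose by 0.62. The mitophagy receptor BNIP3L was lower (log2FC -0.66). Among 12 mitochondrial release factors and partners, 6 rose and 0 fell on day 7 by edgeR's quasi-likelihood test, with a median log2FC of 0.55 against -0.01 over all genes. At an unadjusted p under 0.05, 8 were higher and 2 lower, where 53.9% of all genes passed (27% in each direction), and DESeq2 called 8 higher and 1 lower. MTCH2, the outer membrane protein that takes up cut BID, rose from 81.9 to 161 CPM (log2FC 0.97, edgeR adjusted p = 8.08e-06). OPA1, which shapes the inner membrane folds that hold cytochrome c, rose by 0.92, and the mitochondrial nuclease gene ENDOG rose by 1.04.

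The caspase step differed from the mitochondrial one in its counts, though the difference between the lists was not tested. Of 11 apoptosome and caspase genes, 0 rose and 1 fell on day 7 by edgeR's quasi-likelihood test, and the median log2FC was -0.26. At an unadjusted p under 0.05, 2 were higher and 3 lower, against the same 53.9% of all genes, and DESeq2 called 1 in each direction. The gene that fell was CASP2 (log2FC -0.77, adjusted p = 0.000278), from 84.0 to 49.3 CPM. Of 7 inhibitor of apoptosis genes, BIRC3, which encodes a ubiquitin ligase of TNF receptor signalling, rose by 4.16. BIRC3 ranged from 363 to 1210 CPM in HT7 and from 23.7 to 61.7 CPM in NT7. XAF1, an antagonist of XIAP, was lower (log2FC -1.05).

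Of 10 death receptor pathway genes, 3 rose and 2 fell on day 7. EDA2R, a TNF receptor family member induced by p53, was called on each day, with a log2FC of 2.04, 4.99 and 4.84 on days 3, 5 and 7. TNFSF10, which encodes the death ligand TRAIL, was lower on day 7 (log2FC -2.05), as was the death receptor gene TNFRSF25 (log2FC -1.29). Of 12 genes for transcription factors known to control the family, 5 rose and 2 fell on day 7. ATF3, a stress factor, rose by 2.41 and MYC by 1.69, while DDIT3, the endoplasmic reticulum stress factor known to repress BCL2, was lower (log2FC -2.35) and near the lower end of detection, at 0.692 to 2.18 CPM in HT7.

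Of 15 genes for post-translational control of the family, 3 rose and 3 fell on day 7. MDM2, the ubiquitin ligase of p53 and itself a p53 target, rose by 2.65. DYNLL2, the dynein light chain that holds BMF, was lower (log2FC -0.74, adjusted p = 0.00107), from 121 to 72.4 CPM, and so was BTRC, a subunit of a ubiquitin ligase (log2FC -0.72). The study itself chose EDA2R and MDM2 as genes of interest on these lungs, so their direction is not independent evidence.

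**Figure D4:**
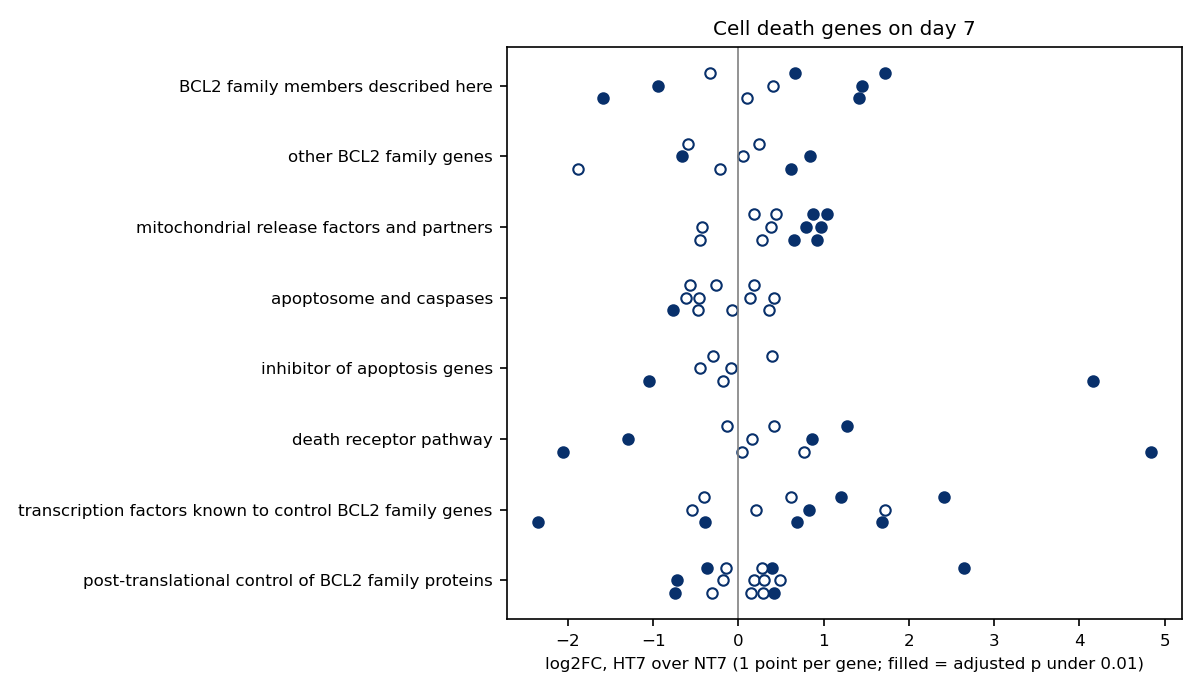
Day 7 log2FC of HT7 over NT7 (horizontal axis, 1 point per gene) for the 9 BCL2 family members and the 7 other lists of cell death genes and regulators (vertical axis), where filled points have an adjusted p under 0.01. Filled points lie on both sides of 0 for the BCL2 family members, to the right alone for the mitochondrial release factors and partners, and are rare among the apoptosome and caspase genes.

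Markers of lung cell types also differed between hyperoxia and normoxia. Their counts stand against 16.9% of all genes called lower and 16.7% called higher on day 7. On day 7, 6 of 7 endothelial markers were lower in hyperoxia, with a summed level of 744 to 1132 CPM in HT7 and 2138 to 2549 CPM in NT7. Of 6 alveolar type 1 cell markers, 4 were lower, with 1984 to 2635 CPM in HT7 and 6756 to 7605 CPM in NT7. In HT7 replicate 2, the HT7 sample with the highest BCL2 and BMF levels, the endothelial sum was the lowest of HT7 (744 CPM). The alveolar type 1 sum was the highest of HT7 there (2635 CPM). Of 8 macrophage markers, 1 was higher and 1 lower on day 7, while their summed level was 1870 to 2438 CPM in HT7 and 1125 to 1329 CPM in NT7. Of 6 tested neutrophil markers, 0 were called on day 7 by edgeR (2 at an unadjusted p under 0.05, 1 by DESeq2), with 1048 to 3458 CPM in HT7 and 1063 to 1153 CPM in NT7. Lymphocyte markers summed to 1.64 to 3.17 CPM in HT7 and 8.27 to 13.8 CPM in NT7, and 3 of 6 tested ones were lower. Erythroid markers were lower for 2 of 4, with 49.7 to 69.9 CPM in HT7 and 123 to 211 CPM in NT7. In the other lists, 2 of 6 ciliated, 2 of 7 fibroblast and smooth muscle, 1 of 7 alveolar type 2 and 1 of 12 proliferation genes were lower, and the summed ciliated markers lay apart, at 122 to 171 CPM in HT7 and 241 to 293 CPM in NT7. Of 2 platelet and 4 muscle markers tested, 0 were called by edgeR or DESeq2, and 1 platelet marker had an unadjusted p under 0.05. No marker that was found had 3 or fewer counts in every sample.

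On day 5, when BAX and BBC3 were called and 7.62% of all genes were lower, 5 of 7 endothelial markers were lower, with 1051 to 1157 CPM in HT5 and 2092 to 2612 CPM in NT5. Alveolar type 1 cell markers were lower for 3 of 6 on day 5, with 2312 to 3956 CPM in HT5 and 5903 to 7074 CPM in NT5. Proliferation genes summed to 296 to 536 CPM in HT5 and 767 to 881 CPM in NT5. Of these 12 genes, 1 was called lower by edgeR and 5 by DESeq2, and 11 were lower at an unadjusted p under 0.05, against 21.7% of all genes. Fibroblast and smooth muscle markers were lower for 2 of 7, with 5473 to 6153 CPM in HT5 and 7063 to 7865 CPM in NT5. Ciliated markers were lower for 1 of 6, with 133 to 162 CPM in HT5 and 233 to 270.0 CPM in NT5. Macrophage markers were higher for 1 of 8 (8.56% of all genes were higher), with 1684 to 1845 CPM in HT5 and 849 to 1543 CPM in NT5. Neutrophil markers summed to 702 to 951 CPM in HT5 and 157 to 691 CPM in NT5, and of 6 tested, 0 were called by edgeR, 1 was higher by DESeq2 and 2 were higher at an unadjusted p under 0.05. Erythroid markers summed to 70.1 to 81.5 CPM in HT5 and 98.0 to 180.0 CPM in NT5, and of 4 tested, 0 were called by edgeR, 1 was lower by DESeq2 and 1 was lower at an unadjusted p under 0.05. Muscle markers stood at 166 CPM in HT5 replicate 1, 5.95 CPM in HT5 replicate 2 and 5.16 to 10.1 CPM in NT5. On day 3, when no member was called, neutrophil markers summed to 1138 to 1675 CPM in HT3 and 296 to 795 CPM in NT3, and muscle markers to 169 CPM in HT3 replicate 2. Of 7 endothelial markers, 1 was lower on day 3, with 2040 to 2408 CPM in HT3 and 2550 to 2855 CPM in NT3. Alveolar type 2 cell markers summed to 24790 to 28060 CPM in HT3 and 17460 to 20390 CPM in NT3, and fibroblast and smooth muscle markers to 5826 to 7403 CPM in HT3 and 8124 to 9990 CPM in NT3, both without overlap. Ciliated markers (191 to 234 CPM in HT3, 239 to 257 CPM in NT3) and proliferation genes (226.5 to 244 CPM in HT3, 294.5 to 412 CPM in NT3) also lay apart. Of 6 tested neutrophil markers, 0 were called on day 3 by edgeR and 1 was higher by DESeq2. At an unadjusted p under 0.05 in edgeR, 5 were higher, against 7.43% of all genes. The part of any of these cell types in the changes of BAX, BBC3, BCL2L1, MCL1, BCL2 and BMF was not tested.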

How the data were processed

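Libraries were stranded, made from poly(A) RNA of the right lung and read from both ends. The authors deposited a table of raw counts per locus with no normalization, and the submitters' processing notes name FastQC, STAR 2.7.10a and the build OryCun2.0. The counting program is not given in the sources used here. A locus with several annotated genes has 1 entry per gene with equal counts, and these further entries held 8.96% to 10.1% of a sample's total. No member shares its locus. All table entries name a rabbit gene, and 44 have no human symbol.

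Counts were analysed with edgeR 4.0.16 (R 4.3.3): filterByExpr kept 13142 genes and left out 685, TMM factors lay between 0.958 and 1.05, and 1 quasi-likelihood fit with a mean for each of 6 groups covered all 17 samples. The spread of HT5, with 2 samples, was estimated together with that of all groups. The Benjamini-Hochberg adjustment covered every tested gene, separately in each of 7 comparisons. DESeq2 1.42.0, the tool of the study, served as an alternative. The fits were checked on simulated data. CPM and log2 ratios (prior count of 2) were summarised with pandas 2.3.3 and drawn with matplotlib 3.10.9.

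The members and all gene lists were chosen with earlier results of these data known. All 10 members were named. From each other list up to 3 genes were named, those with the largest day 7 log2FC, whatever its sign, among the genes called. Alternatives covered the test, scaling, count filter, prior count, thresholds, samples in the fit, entries per locus, replicate block and each sample left out. On day 3, samples with the same replicate number deviated together (correlation of deviations from the group means 0.131 to 0.199 in 3 of 3 pairs), so the numbers were taken as pairs there, and the replicate block left the day 3 count of called members at 0. The day 3 effects given here come from the fit without this block. No source says what the numbers stand for. No sequences are shown.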

Additional observations from a re-analysis of the deposited data

Results flagged for a closer look

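The hyperoxia effect on BAX differed between days by a test of the difference itself. The log2FC of day 7 exceeded that of day 3 by 1.30 (standard error 0.22, edgeR adjusted p = 0.00212), and it lay between 1.14 and 1.49 over the alternatives, with an adjusted p of at most 0.00799, and a log2FC limit of 2 was not reached. The change of the BAX effect per day was 0.33 on the log2 scale (standard error 0.07, edgeR adjusted p = 0.00685). The call per day was lost with the replicate block, without any 1 of the HT3, NT3 or NT7 samples, and without HT7 replicates 1 or 3. Both values come from the same samples. BAX was higher in 3 of 3 HT7 samples than in any NT7 sample and in 3 of 3 HT3 samples than in any NT3 sample. The part of endothelial and alveolar type 1 cell markers, which were lower in HT7, in this difference was not tested.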

How the results depend on the processing

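The 6 members called on day 7 were the same 6 genes under each other test, scaling, filter, prior count, choice of samples, replicate block and left-out sample, and the count was 0 only with the added demand of a log2FC beyond 2. On day 3 the count stayed at 0 under all alternatives. The day 5 count of 2 was 5 with DESeq2, 5 at an adjusted p under 0.05, 1 with the replicate block (BAX), 0 with the day 5 samples alone, 0 with a log2FC beyond 2, and 1 to 4 with a sample left out. It was 4 without HT5 replicate 1 and 1 without HT5 replicate 2 or NT5 replicate 3, and without 1 of 2 HT5 samples the lone sample is assumed to vary like the other groups. BBC3 on day 5 had an adjusted p of 0.0217 with the block. The difference between days 7 and 3 gave 1 called member, and 4 with DESeq2, 2 with the samples of days 3 and 7 alone, 4 at an adjusted p under 0.05, 0 with a log2FC beyond 2 and 1 to 4 with a sample left out (4 without HT7 replicate 2, 2 without NT3 replicate 1). The trend per day gave 1, and 4 with DESeq2, 0 with the replicate block, 4 at an adjusted p under 0.05 and 0 to 4 with a sample left out (4 without HT5 replicate 2 or HT7 replicate 2). A log2FC limit was not applied to the trend. Within hyperoxia the 6 calls were 0 with a log2FC beyond 2 and 4 to 7 with a sample left out. The cause of these changes was not tested.

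Sample numbers on days 5 and 7 were not taken as pairs, though the day 5 correlations were no weaker than those of day 3. Same-numbered samples correlated at 0.141 and 0.264 on day 5, which had 2 pairs. On day 7 the correlations were 0.0695 to 0.174, with 2 of 3 above the limit of 0.1. Whether the numbers mark pairs on these days is not known. Each HT3 and HT7 sample correlated best with its own number, and 1 of 2 HT5 samples did. Within hyperoxia the block kept 6 calls, with BAK1 called and BCL2L1 not. Apart from the day 5 and trend counts above, the block changed no count of called members.

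Members that were not called changed sign in 5 settings: BCL2 on day 3 (log2FC -0.0825 without NT3 replicate 3), BCL2L11 on day 5 (0.11 without NT5 replicate 1) and day 7 (-0.0199 without HT7 replicate 3), and BID on day 5 (0.0522 without HT5 replicate 2, 0.0815 without NT5 replicate 1). The lowest and highest of these values with a sample left out were -0.0825 and 0.33, -0.30 and 0.11, -0.0199 and 0.20, and -0.37 and 0.0815, in the same order. The difference of pro-death and pro-survival means was near 0 and changed sign often. With a sample left out it ran from -0.25 to 0.0154 on day 3, from -0.33 to 0.22 on day 5 and from -0.18 to 0.0144 on day 7. With a member left out, its day 5 value was -0.47 (BCL2), 0.24 (BCL2L1), 0.049 (MCL1), 0.0117 (BCL2L11), 0.0102 (BID) and 0.21 (BMF). Its day 7 value was -0.78 (BCL2), 0.40 (BCL2L1), 0.0314 (MCL1), -0.40 (BAX), -0.35 (BBC3), 0.0035 (BID) and 0.26 (BMF). The wider lists gave 3 calls with DESeq2 and 2 at an adjusted p under 0.05 in place of 1 on day 3, and 30 at an adjusted p under 0.05 in place of 17 on day 5. Other scalings moved the median log2FC of all genes to at most 0.03 from 0. At this depth PMAIP1 was the one member too low to test.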
